A study of Mus musculus with 54 samples.

Results

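The dual-specificity MAP kinase phosphatases Dusp1, Dusp2, Dusp4, Dusp5, Dusp6, Dusp7, Dusp8, Dusp9, Dusp10 and Dusp16 were followed in Ba/F3-gp130 cells, as 10 of the 19920 genes measured. The genes were taken as a family. They and the gene lists used below were chosen with earlier results of these data known. Counts set beside the share of all genes are therefore a description. Each was read from the gene-level probe set that carries its symbol alone. Dusp8 has 2 such probe sets, and the one with the higher mean over all arrays was used. Per the labels, these mouse pro-B cells need Hyper-IL-6 to grow and every line was cultured with it. Hyper-IL-6 joins interleukin-6 to the soluble form of its receptor, and gp130 is the chain through which that complex signals. Of the 4 lines, the parental one was untransfected, and 3 carry constructs of a Cargo Internalization Receptor and are labelled CIR-1, CIR-2 and CIR-3. In each line, unstimulated cells were set beside cells given GFP-PFC, an emulsion added at 50 µl per ml, for 1 h. As the positive control of stimulation, parental cells received 100 ng per ml of Hyper-IL-6 for 1 h. All groups had first spent 3 h in serum-free medium. The 9 groups had 3 arrays each, 27 in all. The labels name no arm that received the carrier liquid alone, and they do not say whether a CIR line is 1 clone or whether a group's arrays are separate cultures. The p values therefore measure only the spread between these arrays, which may be technical.

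MAP kinase phosphatases switch off MAP kinases by removing both phosphates, on threonine and tyrosine, from the activation loop. Dusp1, Dusp2, Dusp4 and Dusp5 encode nuclear enzymes, Dusp6, Dusp7 and Dusp9 encode cytoplasmic enzymes selective for ERK, and Dusp8, Dusp10 and Dusp16 encode enzymes directed at JNK and p38. Several of these genes are themselves switched on by the kinases that their products switch off, so that they form a negative feedback loop, and cytokine receptors such as gp130 signal through ERK as well as through STAT3.

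All values are log2 signals and all differences are on the log2 scale, with n = 3 arrays in each group. Array medians lay between 7.521 and 7.646. All 10 genes were above the median of the array on 27 of 27 arrays. That median covers all 35556 probe sets, many without a symbol. Among the 19920 genes, the means of Dusp8, Dusp9 and Dusp2 stood near the middle, at percentiles 47.9, 53.1 and 55.0. Of 11 measured pro-B markers, 5 to 7 per group had a mean above the lower quartiles of the arrays (6.218 to 6.311). Cd79a and Cd79b, which encode the signalling chains of the B cell receptor, had medians of 9.71 and 10.12. Rag2 and Il7r, at medians of 5.27 and 5.28, lay below every array's lower quartile, as did Ebf1 and Dntt. The transcription factor genes Gata2 and Gata1 had medians of 13.31 and 10.85. In every group the array numbered 1 or 2 had the lowest limma array weight. These weights were 0.158 to 0.729, and those of the other 18 arrays were 0.734 to 4.85. In CIR-3 the gap was small: arrays 1 and 2 had 0.547 and 0.729, and arrays 5 and 6 had 0.734 and 0.818. Calls of single genes that were gained or lost without the 9 arrays numbered 1 and 2 stand beside the results. The tables describe bulk RNA, in which fewer cells of a kind and less RNA per cell cannot be told apart.

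Hyper-IL-6 raised 3 of the 10 genes in parental cells and GFP-PFC raised 4 of the 10 over the 4 lines. Both comparisons share the unstimulated parental arrays. With Hyper-IL-6, Dusp6 rose 2.72-fold, Dusp1 2.54-fold and Dusp2 1.67-fold, where 0.733% of all genes rose. With GFP-PFC, Dusp6 rose 2.43-fold, Dusp5 2.02-fold, Dusp4 1.67-fold and Dusp16 1.29-fold, where 0.186% of all genes rose. None of the 10 fell, against 0.0402% and 0.0351% of all genes. The median difference of the 10 genes was 0.58 with Hyper-IL-6 and 0.19 with GFP-PFC, and over all genes it was -0.01 in both. Genes were called at an adjusted p under 0.05 in limma, with Benjamini-Hochberg adjustment over all 19920 genes. When limma was fitted to just these 6 parental arrays, Dusp6 kept its Hyper-IL-6 call and Dusp1 and Dusp2 did not (limma adjusted p = 0.153 and 0.286). Socs3, the feedback inhibitor of gp130 signalling, rose by 3.06 with Hyper-IL-6 and differed by 0.01 with GFP-PFC (limma adjusted p = 0.999).

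**Figure D1:**
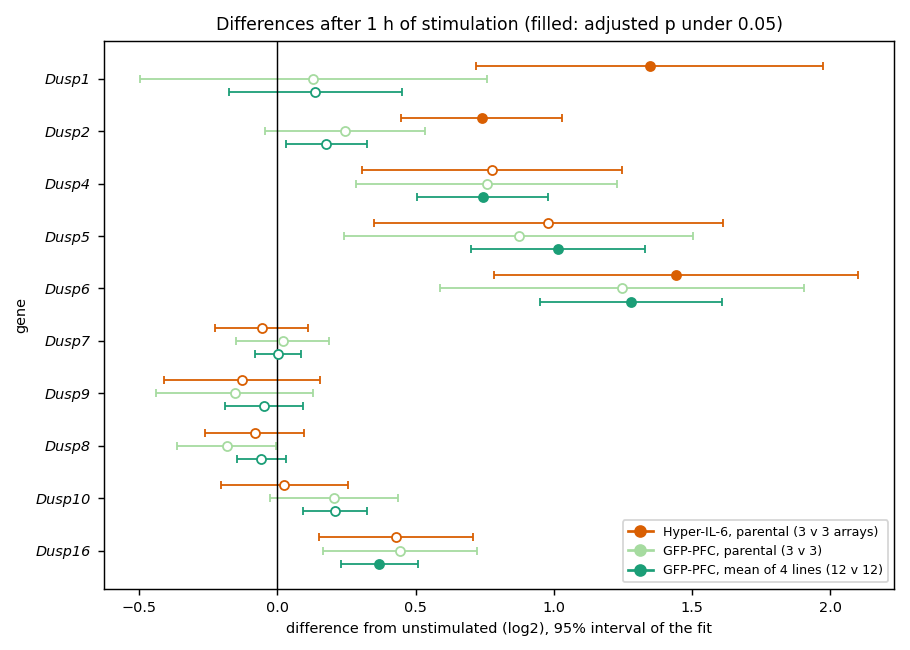
Differences from unstimulated cells (log2, horizontal axis) for the 10 genes (vertical axis), with the 95% interval of the fit as bars. Orange points are Hyper-IL-6 in parental cells, pale green points GFP-PFC in parental cells and dark green points GFP-PFC as the mean of the 4 lines. Filled points passed an adjusted p of 0.05: Dusp1, Dusp2 and Dusp6 with Hyper-IL-6, and Dusp4, Dusp5, Dusp6 and Dusp16 in the mean of 4 lines.

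The stretch of 250 bases before the gene start is shown for 3 of these genes, because Dusp6 and Dusp1 rose most with Hyper-IL-6, and Dusp6 and Dusp5 with GFP-PFC. The sequences are those of RefSeq on GRCm38.p6, read 5′ to 3′ on the strand of the gene, and 8 of the 10 genes matched the table by symbol. Dusp4 and Dusp9 were not matched. The windows are chr17:26508473-26508722 on the minus strand for Dusp1, chr19:53528895-53529144 on the plus strand for Dusp5 and chr10:99262981-99263230 on the plus strand for Dusp6. Capitals mark a cyclic AMP response element in Dusp1 and a pair of CArG boxes, the element bound by serum response factor, in Dusp5.
Dusp1: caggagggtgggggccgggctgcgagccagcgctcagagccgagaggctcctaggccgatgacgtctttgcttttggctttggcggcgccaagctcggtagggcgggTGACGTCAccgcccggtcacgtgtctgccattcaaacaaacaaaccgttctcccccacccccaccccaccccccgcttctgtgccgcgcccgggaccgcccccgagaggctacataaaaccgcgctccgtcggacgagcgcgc
Dusp5: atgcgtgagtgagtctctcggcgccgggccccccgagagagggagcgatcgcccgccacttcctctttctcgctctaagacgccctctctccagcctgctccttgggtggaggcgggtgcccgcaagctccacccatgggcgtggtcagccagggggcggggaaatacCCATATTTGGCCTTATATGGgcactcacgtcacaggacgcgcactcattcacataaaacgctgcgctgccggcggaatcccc
Dusp6: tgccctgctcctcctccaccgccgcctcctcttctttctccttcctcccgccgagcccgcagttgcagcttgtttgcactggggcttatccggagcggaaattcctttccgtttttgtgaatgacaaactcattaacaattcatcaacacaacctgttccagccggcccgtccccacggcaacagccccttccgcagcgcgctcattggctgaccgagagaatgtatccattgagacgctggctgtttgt

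In the same windows, the CArG box was found in 1 of the 8 genes and in 1.47% of 32851 windows in the table. In Dusp5 the boxes occupy positions -82 to -73 and -72 to -63, counted back from the start, so they lie side by side. A cyclic AMP response element (TGACGTCA) was found in 1.55% of windows, and in Dusp1 at -143 to -136. GC boxes (CCGCCC) lie on both sides of it, at -150 to -145 and at -135 to -130, without overlap. Dusp8 holds 2 response elements of the same kind, at -107 to -100 and at -63 to -56. GC boxes were found in 6 of the 8 genes and in 32.7% of windows. The AP-1 element (TGACTCA or TGAGTCA, 4.46% of windows), the STAT element (TTCNNNGAA, 7.02%) and the ETS element (CCGGAAGT, 2.88%) were found in 0 of the 8. Both strands were searched, and the Dusp6 window held none of the motifs. A match is a run of letters, not a shown site of binding.

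Dusp1, an early response gene whose product acts on p38, JNK and ERK, stood at 10.41, 10.39 and 10.63 on the unstimulated parental arrays. With Hyper-IL-6 it stood at 11.15, 12.22 and 12.10, and with GFP-PFC at 10.33, 10.57 and 10.93. All 3 Hyper-IL-6 arrays lay above the other 6 parental arrays, with array 2 about 1 log2 unit below arrays 4 and 6. Dusp1 rose by 1.35 with Hyper-IL-6 (SE 0.30, limma adjusted p = 0.0307), and by 1.65 without the arrays numbered 1 and 2 (limma adjusted p = 0.00796). The rise kept its sign and lost its call in each of 5 cases of leaving out 1 array: the limma adjusted p was 0.0785, 0.154 and 0.0618 when unstimulated array 1, 3 or 5 was dropped, and 0.325 and 0.259 when array 4 or 6 of Hyper-IL-6 was.

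With GFP-PFC, the Dusp1 difference over the 4 lines was 0.14 (95% interval -0.18 to 0.45, limma adjusted p = 0.997), with 9 of 12 consecutively numbered pairs higher. In CIR-3, array 5 (unstimulated, 11.13) and array 6 (GFP-PFC, 11.68) stood well above the other 4 arrays of that line, which lay between 10.11 and 10.24. They were also the highest of their CIR-3 groups for Dusp4, Dusp5 and Dusp6. In CIR-2 the 6 arrays were close together, from 10.08 to 10.32.

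Dusp2, whose product is a nuclear enzyme found mainly in blood cells, also rose with Hyper-IL-6. It stood at 8.08, 8.16 and 8.32 in unstimulated parental cells, at 8.31, 8.53 and 8.46 with GFP-PFC and at 8.52, 9.12 and 9.13 with Hyper-IL-6. Hyper-IL-6 arrays 4 and 6 lay well clear of all GFP-PFC arrays, and array 2 lay within them. The rise with Hyper-IL-6 was 0.74 (SE 0.14, limma adjusted p = 0.00605), and 0.89 without the arrays numbered 1 and 2 (limma adjusted p = 1.43e-05). Leaving out Hyper-IL-6 array 4 or 6 ended that call, with differences of 0.64 and 0.63 (limma adjusted p = 0.0956 and 0.0884). Over the 4 lines, the GFP-PFC difference was 0.18 (95% interval 0.03 to 0.32, limma adjusted p = 0.62), although all 12 pairs were higher, by 0.05 to 0.37. With the array numbers as a block and the Hyper-IL-6 arrays left out, this small difference passed (limma adjusted p = 0.0172). It also passed without the arrays numbered 1 and 2 (0.17, limma adjusted p = 0.033).

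Dusp4, which encodes a nuclear phosphatase of ERK and JNK, stood at 8.21, 8.39 and 8.51 in unstimulated parental cells. It stood at 8.85, 9.19 and 9.33 with GFP-PFC and at 8.61, 9.41 and 9.42 with Hyper-IL-6. Every stimulated parental array was above every unstimulated one. The rise over the 4 lines with GFP-PFC was 0.74 (SE 0.11, limma adjusted p = 0.00291), and all 12 pairs were higher, by 0.31 to 1.18. The Hyper-IL-6 difference was of the same size, 0.78 (SE 0.23), but did not pass (limma adjusted p = 0.199). It passed without Hyper-IL-6 array 2 (1.05, limma adjusted p = 0.0161) and without the arrays numbered 1 and 2 (0.97, limma adjusted p = 0.00298).

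In the CIR lines, Dusp4 went from 8.88, 8.91 and 8.78 unstimulated to 9.52, 9.71 and 9.45 with GFP-PFC in CIR-1, and from 8.24, 8.65 and 8.63 to 9.18, 9.27 and 8.94 in CIR-2. In CIR-3 it went from 8.07, 8.26 and 8.90 to 8.71, 9.44 and 9.72. The groups did not overlap in CIR-1 and CIR-2 and overlapped in CIR-3.

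Dusp5, whose product is a nuclear phosphatase specific for ERK, rose with GFP-PFC. Parental arrays stood at 9.68, 10.04 and 10.38 unstimulated, 10.49, 11.08 and 11.14 with GFP-PFC and 10.46, 11.26 and 11.31 with Hyper-IL-6. The lowest array of each parental group was the one numbered 1 or 2. All 12 pairs were higher with GFP-PFC, by 0.61 to 1.55. The rise over the 4 lines was 1.01 (SE 0.15, limma adjusted p = 0.0024). With Hyper-IL-6 the difference was 0.98 (SE 0.30, limma adjusted p = 0.26), with all 3 arrays above the unstimulated ones, and it passed without the arrays numbered 1 and 2 (1.08, limma adjusted p = 0.00442).

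CIR-1 went from 9.55, 9.63 and 10.02 to 10.53, 10.81 and 10.97 for Dusp5, and CIR-2 from 9.33, 9.73 and 9.98 to 10.37, 10.79 and 10.59. CIR-3 went from 9.58, 10.03 and 10.75 to 10.59, 11.58 and 11.93, with the highest single values of the gene. The CIR-3 groups overlapped and those of CIR-1 and CIR-2 did not.

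Dusp6, the cytoplasmic ERK phosphatase best known as a readout of ERK activity, had the largest rise of the family in both comparisons. Parental arrays stood at 10.52, 10.13 and 10.45 unstimulated, at 11.59, 11.63 and 11.62 with GFP-PFC and at 11.43, 12.02 and 11.98 with Hyper-IL-6. Every stimulated array was above every unstimulated one. The rise with Hyper-IL-6 was 1.44 (SE 0.32, limma adjusted p = 0.026), and 1.71 without the arrays numbered 1 and 2 (limma adjusted p = 0.00313). It kept its sign and lost its call when unstimulated array 3 or 5 was dropped (limma adjusted p = 0.179 and 0.0678), and when Hyper-IL-6 array 4 or 6 was (limma adjusted p = 0.212 and 0.188).

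With GFP-PFC, Dusp6 rose by 1.28 over the 4 lines (SE 0.16, limma adjusted p = 0.000392), which placed it at rank 2 of all genes by p. All 12 pairs were higher, by 0.57 to 2.28. CIR-1 went from 11.06, 9.71 and 9.98 to 11.74, 11.61 and 11.13, CIR-2 from 10.85, 9.85 and 10.19 to 11.52, 11.41 and 10.77, and CIR-3 from 9.96, 9.86 and 11.07 to 11.66, 12.14 and 12.18. In each CIR line, 1 unstimulated array stood high, namely array 1 in CIR-1 and CIR-2, and array 5 in CIR-3. The groups overlapped in CIR-2 and not in CIR-3, and in CIR-1 the highest unstimulated array lay just below the lowest GFP-PFC array. The SD of the unstimulated groups was 0.71, 0.51 and 0.67 in these lines against 0.21 in parental cells. In order of group means, the 4 unstimulated groups came lowest (10.25 to 10.37), then CIR-2, CIR-1 and parental cells with GFP-PFC (11.23, 11.50 and 11.61), Hyper-IL-6 (11.81) and CIR-3 with GFP-PFC (11.99).

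The other ERK-selective genes did not follow. Dusp7 kept within 10.10 and 10.43 on all 27 arrays, and its differences were -0.06 with Hyper-IL-6 (95% interval -0.23 to 0.11) and 0.00 with GFP-PFC (95% interval -0.08 to 0.09). Dusp9 differed by -0.13 with Hyper-IL-6 (95% interval -0.41 to 0.16) and by -0.05 with GFP-PFC (95% interval -0.19 to 0.09). On the unstimulated parental arrays, Dusp9 stood at 7.76, 8.43 and 8.51, with array 1 far below the others. Without the arrays numbered 1 and 2, Dusp9 was lower with both treatments, at -0.41 with Hyper-IL-6 (limma adjusted p = 0.00263) and -0.16 with GFP-PFC (limma adjusted p = 0.0239). In that setting many more of all genes were called than with all arrays.

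Among the genes directed at JNK and p38, Dusp16 rose with GFP-PFC and Dusp8 and Dusp10 did not pass. Dusp16, which encodes a JNK phosphatase, stood at 9.48, 9.38 and 9.42 in unstimulated parental cells. It stood at 9.81, 9.75 and 10.06 with GFP-PFC and at 9.60, 9.95 and 10.01 with Hyper-IL-6, with no overlap between stimulated and unstimulated arrays. The rise with GFP-PFC over the 4 lines was 0.37 (SE 0.067, limma adjusted p = 0.0111), and all 12 pairs were higher, by 0.14 to 0.65. From exon-level values the difference was 0.33 and did not pass (limma adjusted p = 0.07). With Hyper-IL-6 it was 0.43 (SE 0.13, limma adjusted p = 0.27), and it passed without the arrays numbered 1 and 2 (0.58, limma adjusted p = 0.0345).

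Dusp10, which encodes a phosphatase of JNK and p38, was also higher in all 12 pairs with GFP-PFC, by 0.01 to 0.43. The difference of 0.21 (SE 0.056) did not pass (limma adjusted p = 0.174), and passed without the arrays numbered 1 and 2 (0.28, limma adjusted p = 0.00853). With Hyper-IL-6 it was 0.03 (95% interval -0.20 to 0.26). Dusp8 differed by -0.08 with Hyper-IL-6 (95% interval -0.26 to 0.10) and by -0.06 with GFP-PFC (95% interval -0.15 to 0.03). Without the arrays numbered 1 and 2 it was lower with Hyper-IL-6, at -0.24 (limma adjusted p = 0.0242).

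**Figure D2:**
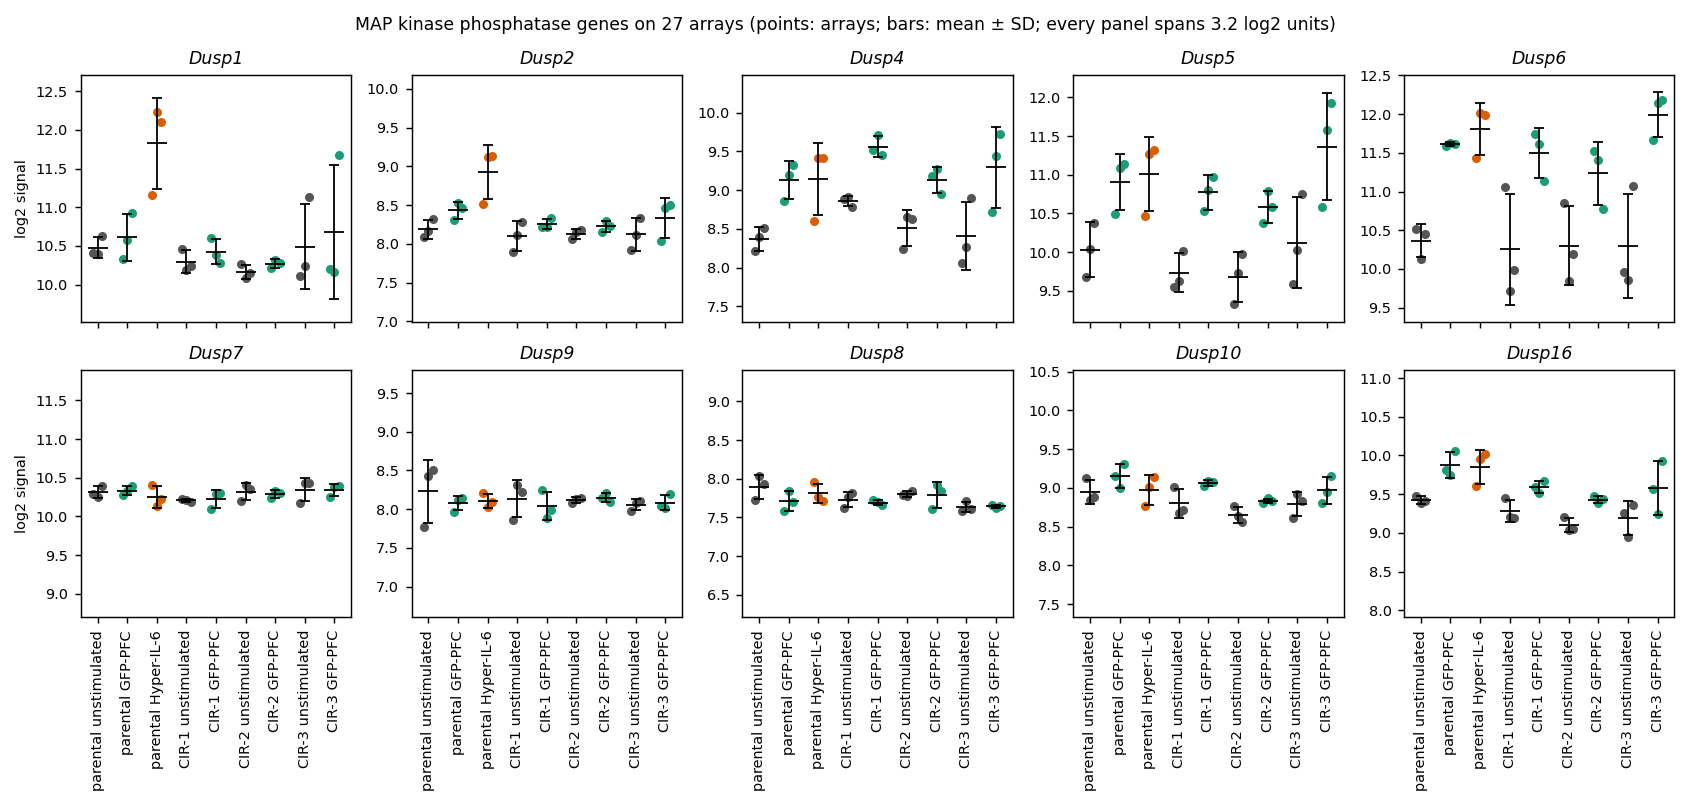
Log2 signal (vertical axis) of the 10 genes on the 27 arrays, by group of line and stimulation (horizontal axis), each panel spanning 3.2 log2 units. Points are arrays, grey for unstimulated, green for GFP-PFC and orange for Hyper-IL-6, and bars give the mean ± SD of 3 arrays. Dusp1 and Dusp2 have their highest mean with Hyper-IL-6, Dusp4, Dusp5, Dusp6 and Dusp16 are higher with GFP-PFC in every line, and Dusp7, Dusp8 and Dusp9 are nearly level.

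Counted over the family, 6 of the 10 genes were higher in 12 of 12 pairs with GFP-PFC (Dusp2, Dusp4, Dusp5, Dusp6, Dusp10 and Dusp16), against 1.33% of all genes. With Hyper-IL-6, 6 of 10 genes had 3 arrays that all lay above the unstimulated ones (Dusp1, Dusp2, Dusp4, Dusp5, Dusp6 and Dusp16), against 4.85% of all genes. The pairs are arrays with consecutive numbers in the same line. The labels do not state this pairing.

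**Figure D3:**
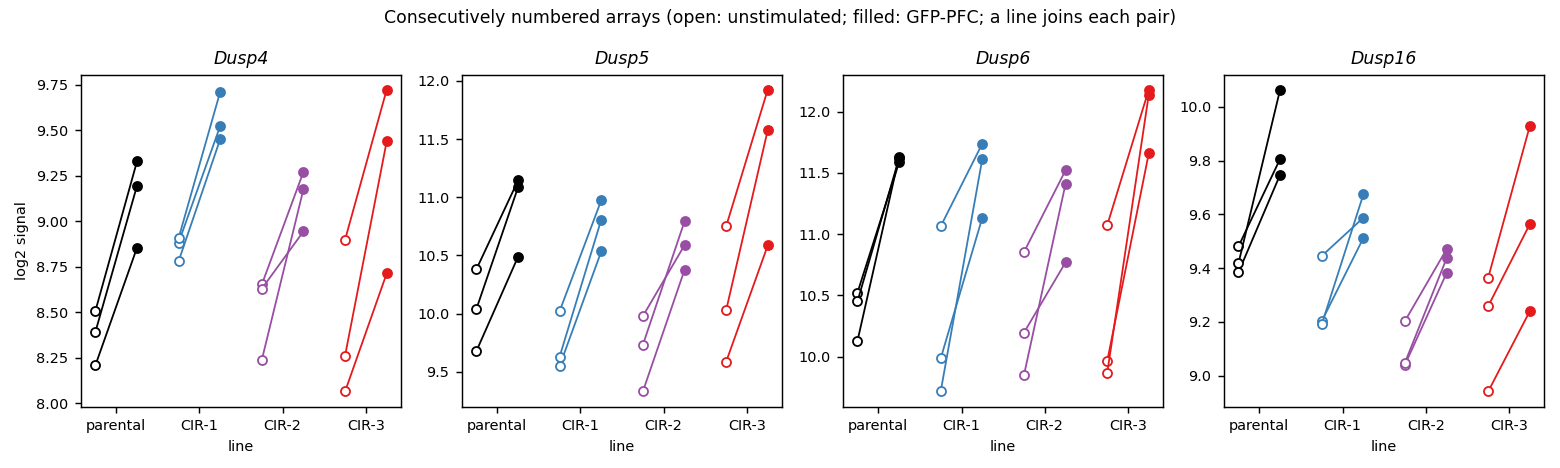
Log2 signal (vertical axis) of the 4 genes that rose with GFP-PFC, by line (horizontal axis). Open points are unstimulated arrays, filled points GFP-PFC arrays, and a line joins arrays with consecutive numbers. All 48 lines slope upward, and for Dusp6 the steepness varies most, from 0.57 to 2.28.

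The mean difference of the 3 CIR lines uses no parental array, although its spread was estimated from all 27 arrays. In it Dusp4 rose by 0.74 (limma adjusted p = 0.0206), Dusp5 by 1.06 (0.0122) and Dusp6 by 1.29 (0.00247). These were 3 of the 10 genes, against 0.0653% of all genes that rose. Dusp16 differed by 0.34 (limma adjusted p = 0.103) and passed with the array numbers as a block (limma adjusted p = 0.0185). Leaving out 1 array ended the call of Dusp4 in 8 cases, with differences of 0.67 to 0.73 and limma adjusted p values of 0.0569 to 0.0729. These were CIR-1 arrays 4 and 5, CIR-2 arrays 1 and 4, and CIR-3 arrays 1, 3, 4 and 6.

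In single lines, no gene of the family passed, and 0.00% of all genes did. At an unadjusted p under 0.05, the genes higher with GFP-PFC were 4 of 10 in parental cells (1.09% of all genes), 5 of 10 in CIR-1 (0.768%), 4 of 10 in CIR-2 (0.547%) and 4 of 10 in CIR-3 (1.11%). In parental cells 1 of 10 was lower at that threshold (2.83% of all genes), Dusp8 at -0.18 (limma adjusted p = 0.999), with all 3 pairs lower. The Dusp6 difference was 1.25 in parental cells, and 1.24, 0.93 and 1.69 in the CIR lines in order, each with an SE of 0.32. That of Dusp5 was 0.87, 1.04, 0.91 and 1.24, each with an SE of 0.30. That of Dusp4 was 0.76, 0.71, 0.62 and 0.88, and that of Dusp16 was 0.44, 0.31, 0.33 and 0.39. CIR-2 had the lowest value for Dusp4 and Dusp6, and CIR-3 the highest for Dusp4, Dusp5 and Dusp6. A test of whether the differences varied among the 4 lines passed for none of the 10 genes, with 0.00% of all genes passing, and at an unadjusted p under 0.05 for 0 of 10, with 0.939% of all genes. The lowest unadjusted p values of that limma test were 0.408 for Dusp8 and 0.426 for Dusp6. With the array numbers as a block, Dusp5 passed in CIR-1 (limma adjusted p = 0.0217) and in CIR-3 (limma adjusted p = 0.00134). With the Hyper-IL-6 arrays also left out of that fit, it passed in CIR-3 (limma adjusted p = 0.00458) and not in CIR-1 (limma adjusted p = 0.0557). Dusp5 also passed in CIR-3 without the arrays numbered 1 and 2 (1.36, limma adjusted p = 0.0474), and Dusp6 without CIR-3 array 5 (2.08, limma adjusted p = 0.0238).

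Set directly against GFP-PFC in parental cells, Hyper-IL-6 gave no called gene of the family, with 0.507% of all genes called, and 2 of 10 higher at an unadjusted p under 0.05, with 3.30% of all genes. Dusp1 was 1.22 higher with Hyper-IL-6 (SE 0.30, limma adjusted p = 0.0914), with all 3 arrays above the GFP-PFC arrays. Dusp2 was 0.49 higher (SE 0.14, limma adjusted p = 0.212). Both passed with Hyper-IL-6 array 2 left out, at 1.55 and 0.70 (limma adjusted p = 0.0101 and 0.00489), and without the arrays numbered 1 and 2 Dusp2 did (0.63, limma adjusted p = 0.000682). For the genes that rose with GFP-PFC the interval of the difference was -0.45 to 0.49 for Dusp4, -0.52 to 0.74 for Dusp5, -0.46 to 0.86 for Dusp6 and -0.29 to 0.26 for Dusp16. The estimates for these genes were 0.02, 0.11, 0.20 and -0.02.

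Before stimulation, none of the 10 genes passed the threshold between a CIR line and parental cells when all arrays were fitted, where 1.73%, 1.20% and 1.49% of all genes passed in the lines in order. At an unadjusted p under 0.05, 1 of 10 was higher in CIR-1 (4.92% of all genes), 2 were lower in CIR-2 (3.91%) and 1 was lower in CIR-3 (6.25%). In CIR-1, the arrays of 1 gene all lay above the parental ones (4.77% of all genes), Dusp4 with a difference of 0.49 (limma adjusted p = 0.536), and those of Dusp7 all lay below (4.90% of all genes). In CIR-2, 3 genes lay below without overlap (5.83% of all genes): Dusp1, Dusp10 and Dusp16, at -0.32, -0.30 and -0.33 (limma adjusted p = 0.968, 0.359 and 0.431). In CIR-3, Dusp8 and Dusp16 did, 2 of 10 genes against 5.72% of all genes, at -0.26 and -0.24 (limma adjusted p = 0.173 and 0.497). With the array numbers as a block and no Hyper-IL-6 arrays, Dusp8 passed in CIR-3 (limma adjusted p = 0.0299). Without the arrays numbered 1 and 2, Dusp9 was lower in CIR-2 (-0.32, limma adjusted p = 0.0212) and in CIR-3 (-0.37, limma adjusted p = 0.0053), and Dusp8 was lower in CIR-3 (-0.32, limma adjusted p = 0.00777). Leaving out parental array 1 alone gave the calls of Dusp8 and Dusp9 in CIR-3 (-0.34 and -0.41, limma adjusted p = 0.0249 and 0.0272).

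Averaged over unstimulated and GFP-PFC arrays, CIR-2 held less Dusp16 and Dusp10 than parental cells. The 6 CIR-2 arrays of Dusp16 ran from 9.04 through a median of 9.29 to 9.47, and the 6 parental arrays from 9.38 through 9.61 to 10.06. Those of Dusp10 ran from 8.56 through 8.78 to 8.87 in CIR-2 and from 8.84 through 9.06 to 9.31 in parental cells. The highest CIR-2 array overlapped the lowest parental arrays in both genes. Dusp16 fell by 0.39 (SE 0.095, limma adjusted p = 0.0183) and Dusp10 by 0.31 (SE 0.079, limma adjusted p = 0.0248), 2 of the 10 genes against 1.38% of all genes that were lower. Both calls ended without parental GFP-PFC array 6 (limma adjusted p = 0.0686 for Dusp16 and 0.086 for Dusp10), and without CIR-2 array 3 (0.053 and 0.0607) or 5 (0.0505 and 0.0776). The call of Dusp16 also ended without CIR-2 array 4 (limma adjusted p = 0.0508). The call of Dusp10 also ended without parental array 1 (limma adjusted p = 0.0693) and without CIR-2 array 2 (0.0546) or 6 (0.0551). Without the arrays numbered 1 and 2, the difference was -0.43 for Dusp16 (limma adjusted p = 0.0596) and -0.29 for Dusp10 (limma adjusted p = 0.0168).

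In CIR-3 the same comparison gave -0.27 for Dusp16 (limma adjusted p = 0.131) and -0.17 for Dusp10 (limma adjusted p = 0.283), and in CIR-1 it gave -0.22 (limma adjusted p = 0.301) and -0.12 (limma adjusted p = 0.634). With the array numbers as a block, Dusp16 passed in CIR-3 (limma adjusted p = 0.05 after rounding), and Dusp4 passed in CIR-1, where it was 0.46 higher (limma adjusted p = 0.022, and 0.123 without the block). With all arrays fitted and no block, no gene of the family was called in CIR-1 or CIR-3, where 4.91% and 4.20% of all genes were. At an unadjusted p under 0.05, 1 was higher (7.30% of all genes) and 1 lower (6.01%) in CIR-1, and 3 were lower in CIR-3 (8.13%). Without the arrays numbered 1 and 2, Dusp9 was lower in CIR-1 (-0.19, limma adjusted p = 0.0276), and Dusp8 and Dusp9 were lower in CIR-3 (-0.23 and -0.20, limma adjusted p = 0.00448 and 0.0139). In CIR-1, Dusp4 also passed in a fit restricted to the arrays of that comparison (limma adjusted p = 0.00878). In CIR-3, Dusp8 passed without parental array 1 (-0.21, limma adjusted p = 0.0324) and Dusp16 without CIR-3 array 6 (-0.36, limma adjusted p = 0.019). A test of any difference among the 4 lines passed for 0 of 10 genes and 7.42% of all genes, and at an unadjusted p under 0.05 for 5 of 10 and for 3589 of the 19920 genes, with limma adjusted p values of 0.0552 for Dusp16 and 0.076 for Dusp10. With the array numbers as a block it passed for Dusp4, Dusp5 and Dusp16, and without the arrays numbered 1 and 2 for Dusp5, Dusp8, Dusp9 and Dusp10. The share of all genes that passed in those settings is not given here, so these calls are not read as a result about the family.

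The lines also differed in markers of other blood cells. Of 8 mast cell and basophil markers, 1 was higher and 2 were lower in CIR-2 than in parental cells. Over all genes 2.42% were higher and 1.38% lower. The summed level of these 8 markers ran from 57.6 to 59.7 on the CIR-2 arrays and from 61.3 to 65.3 on the parental unstimulated and GFP-PFC arrays. It ran from 58.4 to 59.8 in CIR-1 and from 58.4 to 60.5 in CIR-3. Such a sum can be carried by 1 gene: Fcer1a ran from 4.75 to 9.98 over all arrays. The median difference of the 8 markers in CIR-2 was -0.16. Of 4 erythroid markers, 3 were higher in CIR-2, with sums of 42.8 to 43.0 against 41.3 to 42.1. In CIR-1 3 were also higher (2.95% of all genes), and in CIR-3 1 was (3.10%). Of the 8 mast cell and basophil markers, 1 was higher and 2 were lower in CIR-1, where 1.96% of all genes were lower. In CIR-3 2 of them were higher and 2 lower, where 1.10% of all genes were lower. In CIR-2, of 5 myeloid markers Mpo was lower, of 11 pro-B markers Cd79b was higher, and of 4 T cell markers 0 were called. Mpo was also lower in CIR-1 and was higher in CIR-3. The part of these differences in the Dusp10 and Dusp16 results was not tested. In the Hyper-IL-6 comparison no marker of these lists was called, and in the GFP-PFC comparison only Ms4a2, a chain of the IgE receptor of mast cells, was (0.57 higher, limma adjusted p = 0.0149).

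**Figure D4:**
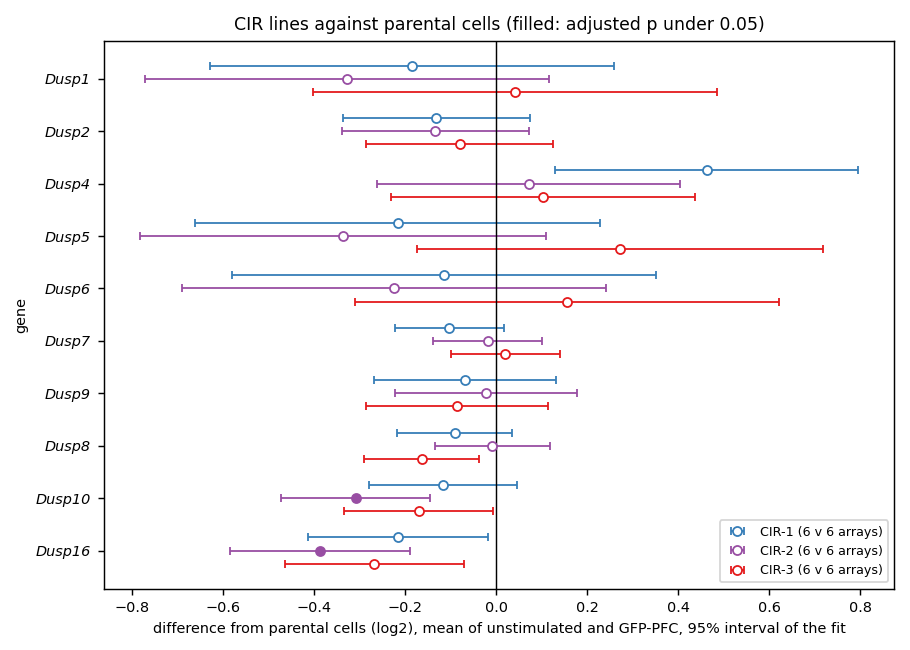
Differences of the CIR lines from parental cells (log2, horizontal axis) for the 10 genes (vertical axis), averaged over unstimulated and GFP-PFC arrays, with the 95% interval of the fit as bars. Blue is CIR-1, purple CIR-2 and red CIR-3. Only Dusp10 and Dusp16 in CIR-2 are filled, for an adjusted p under 0.05, and both lie below 0 in all 3 lines.

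Within groups, several of these genes moved with the number of the array. Dusp2 and Dusp5 lay below their group mean on all 8 unstimulated and GFP-PFC arrays numbered 1 or 2, and above it on all 8 numbered 5 or 6. The mean deviation of Dusp5 was -0.38 on the former and 0.32 on the latter, against its GFP-PFC difference of 1.01. Dusp16 lay below its group mean on all 8 arrays numbered 3 or 4, with a mean deviation of -0.13. Dusp6 showed no such order, with 5, 4 and 4 of 8 arrays above the group mean for the numbers 1 and 2, 3 and 4, and 5 and 6.

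Over all 27 arrays, which share the lines, the treatments and the numbering, Dusp5 correlated with Dusp4 (Pearson r = 0.80) and Dusp6 (0.80), and Dusp1 with Dusp2 (0.85). Dusp10 and Dusp16 had an r of 0.77, and Dusp8 and Dusp9 of 0.63. Dusp6 and Dusp7, both ERK-selective, had an r of -0.04. These values describe these arrays and carry no test.

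At exon level, the probe sets of a gene gave a picture within each transcript. All 4 Dusp6 probe sets were higher with Hyper-IL-6, by 1.32 to 1.56, and with GFP-PFC, by 1.17 to 1.37. All 4 Dusp1 probe sets were higher with Hyper-IL-6, by 1.27 to 1.39, and with GFP-PFC they differed by 0.09 to 0.15. The 6 probe sets of Dusp4 were all higher in both comparisons (0.55 to 1.13 and 0.43 to 1.13), as were the 5 of Dusp5 (0.32 to 1.25 and 0.40 to 1.35) and the 9 of Dusp16 (0.09 to 0.50 and 0.09 to 0.49). The spread was wider in Dusp5 than in Dusp6. The 4 probe sets of Dusp2 ran from 0.15 to 1.40 with Hyper-IL-6, and 3 of 4 were higher with GFP-PFC. Dusp7 had 0 of 3 probe sets higher with Hyper-IL-6.

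The genes whose pattern over the 27 arrays was most like that of a called member were taken from 14930 genes with a mean above the lower quartile, by Pearson r and with no test. For Dusp1 these were Nfkbiz (0.93), Lcor (0.93) and Ier3 (0.92), and for Dusp2 Ier5 (0.92), Hk2 (0.91) and Junb (0.91). For Dusp4 they were Fosl1 (0.87), Fosb (0.86) and Cpt1a (0.83), for Dusp5 Nfkbid (0.94), Plk3 (0.93) and Fosl1 (0.91), and for Dusp6 Plaur (0.89), Fosl1 (0.86) and Fosb (0.84). Those of Dusp16 were Plaur (0.88), Jun (0.87) and Zbtb21 (0.83).

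Around the phosphatases, 11 of 30 immediate early genes of MAP kinase signalling rose with Hyper-IL-6 and 0 fell, where 0.733% of all genes rose and 0.0402% fell. Among them Zfp36, whose product destabilises cytokine mRNA, rose by 2.97, Ier3 by 2.73, Egr2 by 2.18 and Nr4a2 by 1.90 (limma adjusted p = 3.26e-07, 1.36e-05, 0.00133 and 0.00158). With GFP-PFC 5 of 30 rose and 0 fell, where 0.186% of all genes rose and 0.0351% fell. Among these, the kinase gene Plk3 rose by 1.03, Egr2 by 1.03, Fosl1 by 0.76 and Myc by 0.58 (limma adjusted p = 0.0149, 0.00915, 0.0024 and 0.0111). The median difference of the 30 genes was 0.53 and 0.20. Of 12 other ERK feedback genes, Spry2 and Spry4, which encode Sprouty inhibitors of Ras signalling, rose with Hyper-IL-6 by 0.94 and 0.39 (limma adjusted p = 0.0081 and 0.032), and 0 rose with GFP-PFC. Of the kinases and adaptors themselves, 0 of 18 measured genes of the ERK cascade and 0 of 18 of the JNK and p38 cascades were called with either treatment. Of the other phosphatases of MAP kinases, 0 of 15 atypical dual-specificity, 0 of 3 tyrosine and 0 of 7 serine-threonine phosphatase genes were called with Hyper-IL-6 or with GFP-PFC. Over all genes 0.773% were called with Hyper-IL-6 and 0.221% with GFP-PFC, so counts of 0 in lists of these sizes do not set them apart from other genes.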

How the data were processed

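Gene-level and exon-level values of each array were made by the authors in the Expression Console software of Affymetrix, per the labels, as its core analyses of genes and of exons. The version, algorithm, normalization and log base are not given in the sources used here. The deposited values were read as log2 signal because they ran from 2.97 to 14.9, so folds rest on that reading. Values were used as deposited, with no filter on dim probe sets. Of 35556 gene-level probe sets, 21789 carry 1 symbol, and the probe set with the highest mean was kept for the 1015 genes that have several, which gave 19920 genes. The platform annotation was updated for 23 symbols through the RefSeq gene table. The 10 genes and all lists were chosen with earlier results of these data known. The named-gene rule took all 10 genes, Socs3, up to 4 called genes of each list and the 3 genes most like each called member.

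limma 3.58.1 in R 4.3.3 fitted 1 mean per group to all 27 arrays (18 residual degrees of freedom), and calls are two-sided with Benjamini-Hochberg adjustment at 0.05. All SE and intervals come from this fit. The fit was run on simulated data with independent noise on each array. That simulation cannot test the SE under the shared deviations by array number described below. The number of arrays limits the precision.

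Unstimulated arrays carry the numbers 1, 3 and 5, and stimulated ones 2, 4 and 6. Deviations from the group means correlated across genes in all 12 consecutive pairs of a line (r 0.28 to 0.63), all 18 same-numbered unstimulated pairs (0.14 to 0.76) and all 18 GFP-PFC pairs (0.21 to 0.62). For Hyper-IL-6 they were negative (-0.46 to -0.20 against unstimulated arrays). The numbers were therefore taken to pair the unstimulated and GFP-PFC arrays only. The block of 3 pairs was fitted to all 27 arrays, and also with the Hyper-IL-6 arrays left out.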

Additional observations from a re-analysis of the deposited data

How the results depend on the processing

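Of the counts of the 10 genes called per comparison, that of the GFP-PFC mean over 4 lines was 4 whichever single array was left out. The number of all 19920 genes called then ran from 34 to 71, and such ranges follow in brackets. Leaving out 1 array gave 0 to 4 (78 to 248) for Hyper-IL-6 against unstimulated cells. It gave 2 to 3 (6 to 29) for GFP-PFC over the 3 CIR lines and 0 to 1 (0 to 2) for GFP-PFC in CIR-3. For Hyper-IL-6 against GFP-PFC it gave 0 to 2 (40 to 155). For unstimulated CIR-3 against parental cells it gave 0 to 2 (187 to 1642). Over both conditions it gave 0 to 2 (556 to 780) for CIR-2 and 0 to 1 (656 to 2014) for CIR-3. For any difference among the lines it gave 0 to 1 (1244 to 1889). 

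With the replicate block the counts were 5 for Hyper-IL-6 (whose numbers do not pair with the other arrays), 1 in CIR-1 and 1 in CIR-3 for GFP-PFC, 2 for Hyper-IL-6 against GFP-PFC, 1 for CIR-1 and 1 for CIR-3 against parental cells over both conditions, and 3 among the lines. With the block and no Hyper-IL-6 arrays, chosen after seeing the data, they were 2 for GFP-PFC in CIR-3, 1 for unstimulated CIR-3, 1 for CIR-1 and 2 for CIR-3 over both conditions, and 5 among the lines. The block changed no other count by over 1.5 times. The share of all genes called with the block is not given here, so these counts are not read as results about the family.

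Without the arrays numbered 1 and 2 the counts were 8 for Hyper-IL-6 (18.4% of all genes) and 7 for GFP-PFC over the 4 lines (4.74%). With all arrays these shares of all genes were 0.773% and 0.221%. Both directions are counted: the 8 include Dusp8 and Dusp9, which were lower (-0.24 and -0.41). The 7 include Dusp9, also lower (-0.16). Further counts were 1 for GFP-PFC in CIR-3, 1 for Hyper-IL-6 against GFP-PFC, and 1 and 2 for unstimulated CIR-2 and CIR-3. Over both conditions they were 1 for CIR-1, 1 for CIR-2 and 2 for CIR-3, and 4 among the lines. Array weights gave 7 for Hyper-IL-6 (17.4%), and for GFP-PFC 5 over the CIR lines, 4 in parental cells and 1 in CIR-3. The 7 and the 4 each include Dusp9, which was lower (-0.39 and -0.33). Weights also gave 2 for Hyper-IL-6 against GFP-PFC, and 1 and 2 for unstimulated CIR-2 and CIR-3. There were 3 for CIR-3 over both conditions and 4 among the lines. A fit to the compared arrays alone gave 1 for Hyper-IL-6 and 1 for CIR-1 over both conditions. Quantile normalization gave 1 and a filter on dim genes 2 among the lines. Where no share of all genes is printed beside a count, that count describes the setting and is not read as a result about the family. The causes were not tested. No difference of a called gene changed sign. The 3 arrays per group limit what single lines can show.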
